A study of Mus musculus with 6 samples.

Results

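The genes described here are 34 subunits of the proteasome and Nfe2l1, a transcription factor known to drive their transcription. All 35 genes were chosen by name and matched to 1 Ensembl identifier each among the 45320 listed, and all 35 were among the 13527 genes that passed the filter on low values. The study sequenced total RNA of whole brown adipose tissue. The C57BL/6 mice were 4 weeks old when they were put on a high-calorie diet with much fat and sugar, and ate it for 4 weeks. One group then stayed on this diet alone (samples 13, 14 and 15, called untreated). The other group ate the same diet with RO5508887, a small-molecule inhibitor of the protease BACE1 (samples 17, 33 and 35, called treated). Neither the dose nor the length of drug treatment is given in the sources used here. Both groups shared the strain and the obesogenic diet, and no library analysed here came from mice on ordinary chow.

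Samples 33 and 35 held identical values for all 45320 identifiers and were counted as 1 library, treated 33/35, which left 3 untreated and 2 treated libraries. Nothing in the labels says whether each sample came from its own animal, so p-values reflect the spread between the samples, which may be technical. Values of a gene are given in the order untreated 13, 14 and 15, then treated 17 and treated 33/35. Ucp1, the uncoupling protein that defines brown fat, was present in every library, at 1837, 227 and 1912 FPKM untreated and 1119 and 1321 FPKM treated. Untreated 14 stood apart from the rest. It had the lowest Ucp1 value, and 28 skeletal muscle markers made up 8.67% of its FPKM sum outside mitochondrial genes, against 0.0541% and 0.0520% in the other untreated libraries. Treated 17 had 3.45% and treated 33/35 1.50%. All 28 of these markers were highest in untreated 14. In whole tissue, fewer cells of a type and less RNA per cell cannot be told apart.

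The proteasome breaks down proteins that carry ubiquitin chains. Its 20S core is a barrel of outer alpha rings and inner beta rings, and Psmb5, Psmb6 and Psmb7 encode the beta subunits that cut peptide bonds. The 19S cap holds a ring of ATPases (Psmc genes) that unfolds substrates, and non-ATPase subunits (Psmd genes) that bind ubiquitin, remove it and form the lid. Psmb8, Psmb9 and Psmb10 encode interferon-inducible subunits that replace Psmb5, Psmb6 and Psmb7 in the immunoproteasome, which favours peptides for antigen presentation. Nfe2l1 is anchored in the endoplasmic reticulum, extracted and cleaved, and raises transcription of subunit genes through antioxidant response elements when proteasome capacity falls short. In brown fat, Nfe2l1 is known for sustaining proteasome activity during cold adaptation.

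The promoters of the subunits were searched for the core of the antioxidant response element, TGACNNNGC, since that is where Nfe2l1 binds as a dimer with a small Maf protein. RefSeq windows on GRCm38.p6, from 250 bases before to 50 bases after each transcription start, were found for 29 of the 35 genes. The core was present on either strand in 4 of the 29 (13.8%), against 14.0% of all 27025 genes in the table, so the members carried it about as often as other genes. The 4 stretches are shown because they are the places in these windows with that core, which is in capitals. All lie upstream of the start.
Psmb5 (chr14:54618023-54618082, minus strand): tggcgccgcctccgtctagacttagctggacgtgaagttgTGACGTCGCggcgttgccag
Psmb6 (chr11:70525297-70525356, plus strand): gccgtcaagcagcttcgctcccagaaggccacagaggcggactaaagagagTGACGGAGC
Psmc6 (chr14:45329574-45329633, plus strand): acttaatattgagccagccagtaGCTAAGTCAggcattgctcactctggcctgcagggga
Psmd12 (chr11:107479278-107479337, plus strand): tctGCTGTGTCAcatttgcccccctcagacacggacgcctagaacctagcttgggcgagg
The core began 47, 9, 227 and 247 bases before the start of Psmb5, Psmb6, Psmc6 and Psmd12. In Psmc6 and Psmd12 it reads on the opposite strand.

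CCAAT, the box bound by the factor NF-Y, was found on either strand in 12 of the 29 members (41.4%), against 41.1% of all genes in the table. Nfe2l1 itself had 4 of them upstream of its farthest upstream start, at 209, 171, 107 and 44 bases before it, all on the opposite strand. This stretch is shown because it lies before that start of the regulator itself and holds these 4 boxes, which are in capitals. Windows of other Nfe2l1 starts held CCAAT boxes too, and these values do not tell which start is used in this tissue.
Nfe2l1 (chr11:96829998-96830187, minus strand): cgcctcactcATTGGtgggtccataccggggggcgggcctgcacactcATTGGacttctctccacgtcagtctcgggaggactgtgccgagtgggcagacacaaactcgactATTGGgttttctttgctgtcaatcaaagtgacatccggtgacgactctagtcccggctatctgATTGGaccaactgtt
A motif for STAT factors, which relay interferon signals, was searched after the values were seen. TTCNNNGAA occurred in Psmb8, 97 bases before its RefSeq start, and in Psmd2, just past the start. Together these are 6.90% of the 29 members against 9.55% of all genes in the table. The RefSeq start of Psmb8 lies inside the gene span given below, and so does this match. Of the immunoproteasome genes Psmb9 and Psmb10 had no match in their windows. A match is only a match of letters. Psmb1, Psmb2, Psmb7, Psmc3, Psmd3 and Psmd7 had no entry.

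The 35 genes lie on 14 chromosomes. Chromosome 11 holds 7 of them, Nfe2l1 among them. Psmb8 (chromosome 17, 34197721 to 34201454) and Psmb9 (chromosome 17, 34181987 to 34187764) sit within the major histocompatibility region and flank Tap1, which encodes a peptide transporter of antigen presentation. Psmb9 and Tap1 overlap by 212 bases on opposite strands. Whether counting used strand is not given in the sources used here, so reads in such overlaps cannot be assigned with certainty. The same holds for Psmc3, which overlaps Slc39a13 by 4579 bases, for Psmd13, which overlaps Sirt3 by 342 bases, and for Psmb7, which overlaps Nek6. Psma2 overlaps AW209491 on the same strand by 8943 bases, where strand would not separate the reads. All 4 named pseudogenes of subunits in the files were low, at most 0.327 FPKM, for a copy of Psmb7.

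Proteasome transcripts were abundant in all 5 libraries with core transcripts above cap transcripts. FPKM is scaled to transcript length, so levels can be set side by side between genes. Nfe2l1 was the highest member, at 236, 259.8 and 242 FPKM without the drug against 249 and 215 FPKM with it. It lay above every subunit in every library. The 31 constitutive subunits had means over the libraries from 43.0 FPKM (Psma5) to 160.5 FPKM (Psmd8), a 3.74-fold range. The 14 genes of the 20S core had a median of 109.0, 110.0 and 97.6 FPKM untreated and of 97.2 and 107.0 FPKM treated. For the 17 genes of the 19S cap these medians were 54.3, 74.8 and 50.6 FPKM untreated and 56.9 and 56.0 FPKM treated. The core exceeded the cap in each library, with ratios of the medians of 2.01, 1.47, 1.93, 1.71 and 1.91 in the same order. The ratio was lowest in untreated 14, then in treated 17. The 34 subunits and Nfe2l1 together made up 0.551% to 0.650% of the FPKM sum outside mitochondrial genes.

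**Figure D1:**
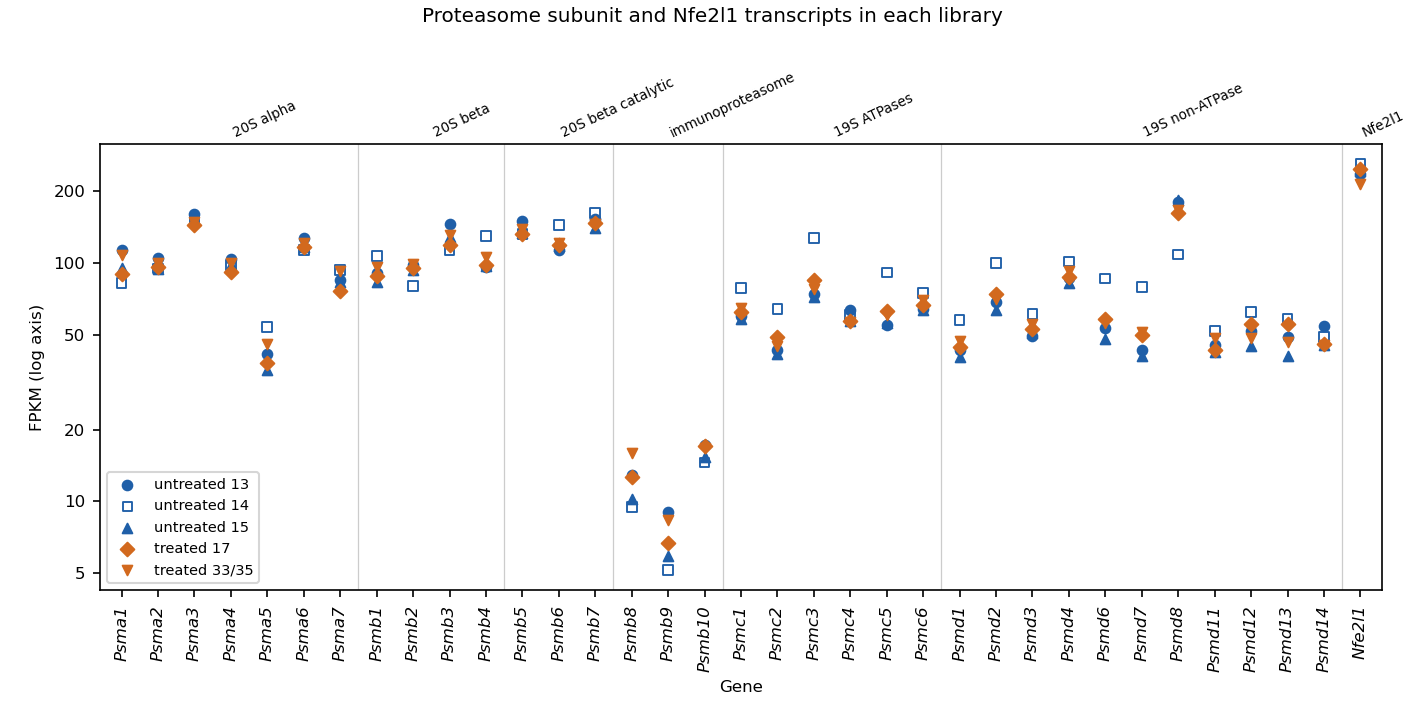
FPKM of each gene (log axis) in the 5 libraries, with untreated libraries in blue, treated libraries in orange and untreated 14 as open squares. Core subunits lie mostly near 100 FPKM, most cap subunits near 50 FPKM with untreated 14 above the others, the 3 immunoproteasome genes between 5.14 and 17.2 FPKM, and Nfe2l1 above 200 FPKM.

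Subunits of the alpha ring varied little between libraries. Psma3, a structural subunit of the ring, was measured at 160.4, 150.4 and 154 FPKM without the drug against 144 and 148 FPKM with it. Psma4, whose tail helps to close the entry of the barrel, was at 104, 98.2 and 98.0 FPKM without the drug against 92.1 and 100.4 FPKM with it. Psma2, a ring neighbour, was at 105, 94.8 and 94.2 FPKM untreated and 96.2 and 99.9 FPKM treated. In these 3 genes no library stood apart, and the highest library exceeded the lowest by a median of 1.13-fold over the 7 alpha genes. Psma6 stayed near them in level, at 127, 113 and 117 FPKM untreated and 117 and 121 FPKM treated. Psma1 and Psma7 varied more, and went opposite ways in untreated 14. Outside that library both were lowest in treated 17 and next lowest in untreated 15. Psma1 measured 113, 82.7 and 95.2 FPKM without the drug against 90.1 and 108 FPKM with it, lowest in untreated 14. Psma7 measured 84.8, 93.6 and 83.0 FPKM without the drug against 76.3 and 92.6 FPKM with it, highest in that library. Psma5 varied most of the ring, at 41.4, 53.7 and 35.5 FPKM untreated and 38.2 and 45.9 FPKM treated. It was lowest of the ring in every library, and highest in untreated 14.

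The members as a whole varied within a narrow range. The median ratio of highest to lowest library was 1.28-fold over all 35 members and 1.62-fold over the 13527 genes tested (1.58-fold over those with a mean of at least 5 FPKM). It was 1.23-fold over the core, 1.43-fold over the cap and 1.65-fold over the 3 immunoproteasome genes. All 35 members stayed within a 2-fold range between the 5 libraries, as 68.1% of the genes tested did. These ratios are of FPKM + 0.5.

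Within the beta rings the structural subunits split by library. Psmb4 measured 96.6, 130.1 and 97.2 FPKM without the drug against 98.1 and 106 FPKM with it, and Psmb1 90.4, 107 and 83.7 FPKM untreated and 87.8 and 96.0 FPKM treated. Both were highest in untreated 14. Psmb3 measured 146, 113 and 128 FPKM without the drug against 119 and 131 FPKM with it, and Psmb2 97.7, 80.3 and 93.3 FPKM untreated and 95.6 and 98.9 FPKM treated. Both were lowest in untreated 14.

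The 3 catalytic subunits were near each other in level. Psmb5, which cuts after hydrophobic residues, was at 151, 133 and 133 FPKM without the drug against 132 and 139 FPKM with it. Psmb6, which cuts after acidic residues, was at 114, 145 and 118 FPKM untreated and 119 and 121 FPKM treated. Psmb7, which cuts after basic residues, was at 153, 162 and 141 FPKM untreated and 148 and 146 FPKM treated. Psmb6 and Psmb7 were highest in untreated 14, whereas Psmb5 was highest in untreated 13.

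The 19S cap separated untreated 14 from the other libraries. Of its 17 genes, 14 were highest there (82.4%), against 6 of the 14 core genes (42.9%) and 33.5% of all genes tested. Psmc3, an ATPase of the base, measured 74.3, 127 and 72.2 FPKM without the drug against 85.3 and 77.6 FPKM with it. Its value in untreated 14 lay 0.79 above the mean of untreated 13 and 15 on the log2 scale. Psmc5, another ATPase, measured 55.2, 91.2 and 56.1 FPKM without the drug against 63.0 and 60.5 FPKM with it, and that difference was 0.71. Psmc2 measured 43.0, 64.4 and 41.6 FPKM untreated and 48.7 and 44.8 FPKM treated, a difference of 0.60. In these 3 genes untreated 14 lay well above the other 4 libraries, which lay closer together. Psmc1 measured 59.7, 78.6 and 58.1 FPKM untreated and 62.4 and 64.7 FPKM treated, a difference of 0.41, and Psmc6 64.1, 74.8 and 63.4 FPKM untreated and 66.7 and 70.1 FPKM treated, a difference of 0.23. Psmc4 was the ATPase without such a shift, at 0.01. Over the 6 ATPases the median of this difference was 0.51, over the non-ATPase subunits 0.37, over the core -0.05, and over all genes tested -0.08. Taken without its sign, the median was 0.41 over the cap, 0.20 over the core and 0.49 over all genes tested. The size of the shift was thus not particular to the cap, whose genes mostly shared its direction. Untreated 13 and 15 differed from each other by a median of 0.09 over the 17 cap genes. No test was made, because the contrast rests on 1 library.

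Among the non-ATPase subunits, Psmd7 and Psmd8 marked the ends of the range. Psmd7, the lid subunit that pairs with the deubiquitinase Psmd14 (chromosome 8, 107580381 to 107588464), measured 43.3, 79.2 and 40.7 FPKM without the drug against 49.7 and 51.3 FPKM with it. Untreated 14 exceeded the mean of untreated 13 and 15 by 0.91 on the log2 scale. Psmd8, another lid subunit (chromosome 7, 29174188 to 29180701), went the opposite way. It measured 180.2, 109 and 183 FPKM without the drug against 163 and 167 FPKM with it, a difference of -0.74. It was the highest cap gene in every library but untreated 14, where Psmc3 exceeded it. Psmd14 itself was at 54.3, 48.9 and 45.2 FPKM untreated and 45.7 and 45.3 FPKM treated, where untreated 14 lay between the other untreated libraries.

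The remaining lid and base genes were all highest in untreated 14. Psmd6, of the lid, was at 53.2, 86.1 and 47.8 FPKM without the drug against 58.4 and 56.0 FPKM with it. Psmd2, a base subunit where ubiquitin shuttles dock, was at 68.3, 100.2 and 63.6 FPKM without the drug against 74.5 and 70.9 FPKM with it. Psmd1, a scaffold of the base, was at 43.0, 57.9 and 40.2 FPKM untreated and 44.2 and 47.1 FPKM treated. These 3 genes had differences of 0.76, 0.60 and 0.47 from the mean of untreated 13 and 15, more than the rest of this group. Psmd4, a ubiquitin receptor, was at 86.4, 101 and 82.1 FPKM untreated and 87.5 and 92.2 FPKM treated. Psmd3, of the lid, was at 49.5, 61.0 and 50.6 FPKM untreated and 52.8 and 55.7 FPKM treated. Psmd11, also of the lid, was at 45.1, 51.8 and 42.5 FPKM untreated and 43.2 and 48.6 FPKM treated. Their differences were smaller, 0.27, 0.28 and 0.24. Psmd12 of the lid was at 51.8, 62.5 and 44.8 FPKM untreated and 55.5 and 48.6 FPKM treated. Psmd13 of the lid was at 49.1, 58.4 and 40.7 FPKM untreated and 55.7 and 46.8 FPKM treated. In both of these, treated 17 came next after untreated 14, with differences of 0.37 and 0.38 for the latter.

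**Figure D2:**
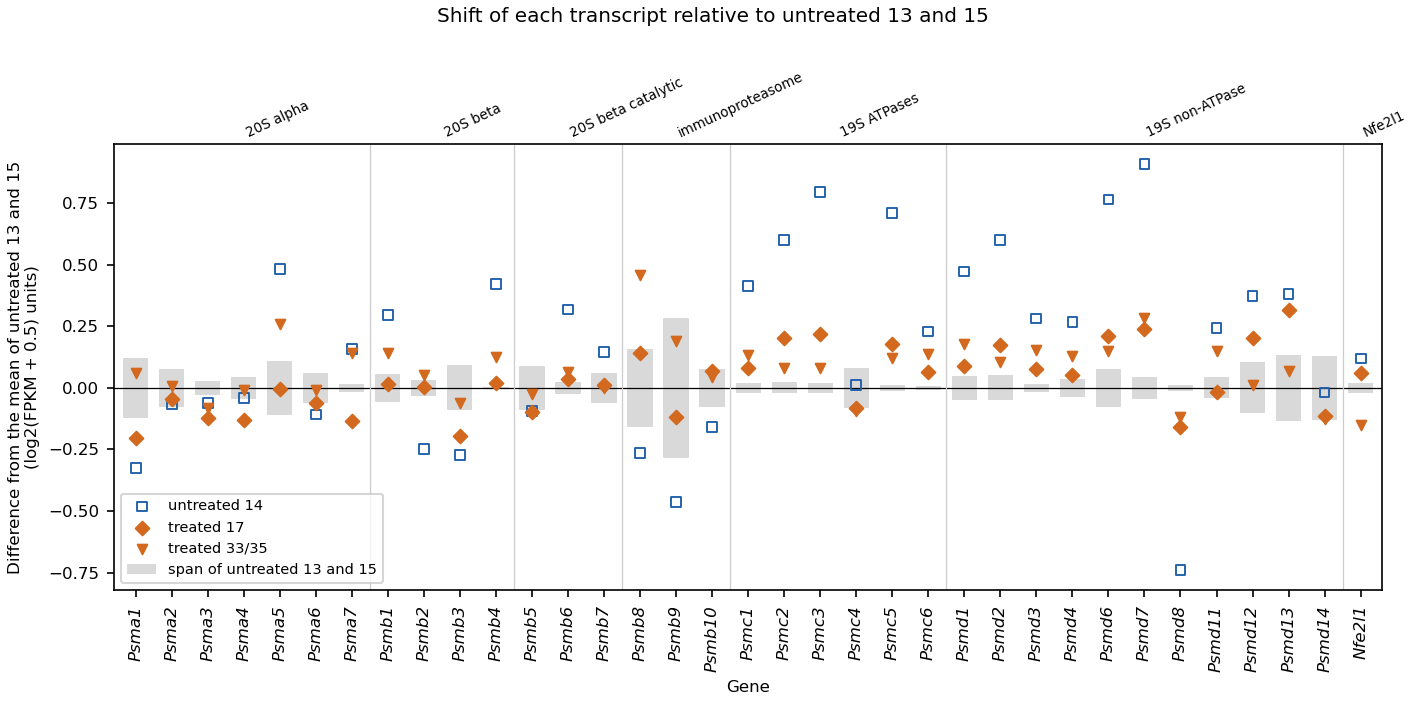
Difference of untreated 14 (open squares), treated 17 (diamonds) and treated 33/35 (triangles) from the mean of untreated 13 and 15, in log2(FPKM + 0.5) units, with grey bars spanning untreated 13 and 15. Most 19S genes lie above 0 in all 3 libraries and highest in untreated 14, up to 0.91 for Psmd7, with Psmd8 at -0.74.

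Untreated 14, with the most muscle transcripts, had the highest value of 14 of the 17 cap genes. Over the 17, the median log2 difference from the mean of untreated 13 and 15 was 0.38 in untreated 14. It was 0.09 in treated 17 and 0.12 in treated 33/35, which is not the order of their muscle transcripts. Psmc2, Psmc3, Psmc5, Psmd2 and Psmd6 followed the order of the muscle markers in full, with untreated 14 above treated 17, treated 17 above treated 33/35, and that above untreated 13 and 15. Psmd8 followed the exact reverse of it. These are 5 and 1 of the 35 members (14.3% and 2.86%), against 12.9% and 10.8% of all genes tested. All 5 are cap genes, which makes 29.4% of the 17 cap genes, and 3 are among the 6 ATPases. No core or immunoproteasome gene followed the order. Brown adipocyte markers went the opposite way, with 8 of 9 lowest in untreated 14 and sums of 4813, 1196 and 4939 FPKM untreated against 3400 and 3982 FPKM treated. The summed level of the 28 muscle markers was 262 to 42131 FPKM in the untreated libraries and 7528 to 17005 FPKM in the treated ones. The part of muscle transcripts, or of fewer brown adipocyte transcripts, in the shifts of cap genes was not tested.

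Treatment with RO5508887 was compared with the diet alone on the log2(FPKM + 0.5) scale, on which differences of low genes are understated. None of the 35 members differed with a limma adjusted p under 0.05, and 0 had an unadjusted p under 0.05. The background is low: 6 of 13527 genes passed (0.0444%, of which 0.0296% higher and 0.0148% lower), and 125 had an unadjusted p under 0.05. Log2 fold changes of the 31 constitutive subunits ran from -0.11 to 0.11, with 9 above and 22 below 0 and a median of -0.03. With median centring of the libraries, which lowered the median of all genes, all 31 lay below 0. The median over all genes tested was 0.06, with 64.3% above 0. Each of the 35 members had an adjusted p of 1.00. The 95% intervals of the constitutive subunits reached from -0.93 to 0.88 at their widest, so fold changes between 0.524 and 1.84 lay within the error for at least 1 of them. In 27 of the 35 genes (77.1%) both treated values lay between the lowest and the highest untreated value, against 59.8% of all genes tested. This share was 64.3% in the core and 94.1% in the cap, where untreated 14 was mostly the highest library.

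**Figure D3:**
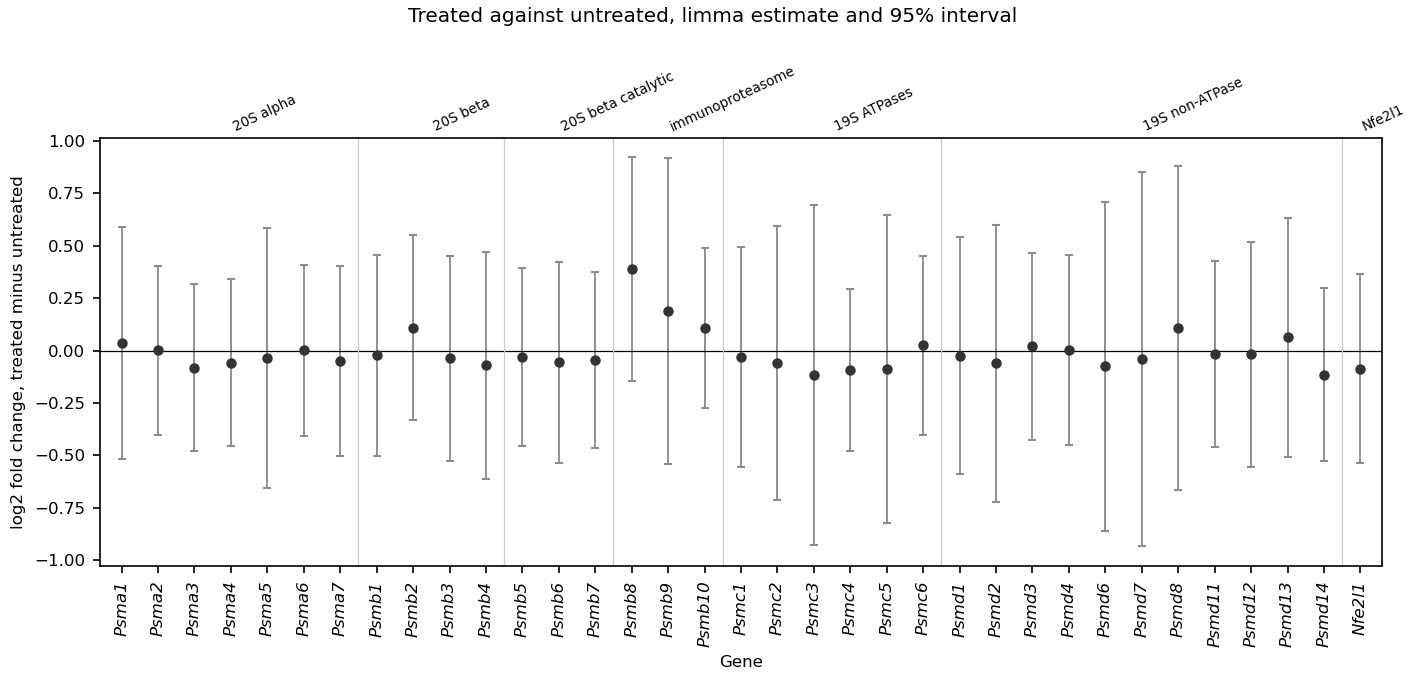
Log2 fold change, treated minus untreated, of each gene with its 95% interval from limma. Every interval includes 0, and the widest belong to cap genes such as Psmd7 and Psmc3.

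By subcomplex the estimates stayed close to 0. In the alpha ring they reached from -0.08 (SE 0.15) for Psma3 to 0.04 (SE 0.21) for Psma1. Structural beta subunits ran from -0.07 (SE 0.21) for Psmb4 to 0.11 (SE 0.17) for Psmb2, and the catalytic ones from -0.06 (SE 0.18) for Psmb6 to -0.03 (SE 0.16) for Psmb5. Of the ATPases, Psmc3 had -0.11 (SE 0.31) and Psmc6 0.02 (SE 0.16). The non-ATPase subunits ran from -0.11 (SE 0.16) for Psmd14 to 0.11 (SE 0.29) for Psmd8. No subcomplex had a member that passed the test.

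The groups did not overlap for 2 of the 35 genes, Psma3 and Psmc4, both lower in the treated libraries. Among all genes tested, 3.18% were lower and 5.50% higher without overlap, together 8.68%, so 2 of 35 was near the background. Psmc4, an ATPase, measured 63.7, 60.7 and 56.95 FPKM without the drug against 56.87 and 56.5 FPKM with it. The gap between the lowest untreated and the highest treated value was small beside the spread of either gene. Their limma p-values before adjustment were 0.617 for Psma3 and 0.565 for Psmc4.

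Without untreated 14, the library with the most muscle transcripts, the signs of most cap genes turned. Of the 17, 14 had log2 fold changes above 0, and the median of the 17 was 0.12, against -0.03 with all libraries. These 14 were highest in untreated 14, so leaving it out had to raise their estimates. Over all genes tested without it, 6917 of 13368 lay above 0, at a median of 0.01. In 11 of the 17, and in 13 of all 35 members, both treated values lay above both remaining untreated values, and in 25.3% of all genes tested. In 3 members, Psma3, Psmc4 and Psmd8, both lay below them, and in 20.8% of all genes tested. The 14 core genes had a median of -0.01, with 7 above and 7 below 0, and all 31 constitutive subunits one of 0.07. Psmd7 had the smallest p of the members in that fit, where its log2 fold change was 0.26 (SE 0.09) and its limma adjusted p = 0.382. None of the 35 members passed, while 158 of 13368 genes did (1.18%, of which 1.11% higher and 0.0673% lower). Untreated 13 and 15 had few muscle transcripts and both treated libraries more, so drug and muscle transcripts cannot be told apart there.

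The immunoproteasome subunits were expressed far below their constitutive partners. Psmb8, which takes the place of Psmb5, measured 12.8, 9.45 and 10.2 FPKM without the drug against 12.7 and 15.9 FPKM with it. Treated 33/35 was the highest library and untreated 14 the lowest, and treated 17 lay just under untreated 13. Psmb9 measured 8.97, 5.14 and 5.88 FPKM without the drug against 6.66 and 8.37 FPKM with it, with untreated 13 highest. Psmb10 (chromosome 8, 105935735 to 105938444) measured 17.2, 14.5 and 15.4 FPKM without the drug against 17.1 and 16.8 FPKM with it, and it varied least of the 3. All 3 genes were lowest in untreated 14, as 43.9% of all genes tested were, which is the reverse of most cap genes.

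None of the 3 immunoproteasome genes passed the test. Psmb8 was measured at 10.8 ± 1.78 FPKM (SD, n = 3) in untreated and 14.3 ± 2.28 FPKM (SD, n = 2) in treated libraries, a log2 fold change of 0.39 (SE 0.20) with a 95% interval from -0.14 to 0.92 and a limma p of 0.118 before adjustment. Psmb9 had 0.19 (SE 0.28) on the log2 fold scale, and its untreated values alone spanned 5.14 to 8.97 FPKM. Psmb10 had 0.11 (SE 0.15). All 3 estimates were above 0, with a median of 0.19, except that Psmb10 was at -0.0030 with median centring. That median was 0.41 without untreated 13, 0.056 without untreated 14, 0.12 without untreated 15, 0.35 without treated 17 and 0.12 without treated 33/35. It was 0.077 with quantile normalization and 0.078 with median centring. Psmb9 alone ran from 0.035 to 0.41 with 1 library left out.

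Set against its constitutive partner in the same library, each immunoproteasome gene gave a ratio that does not depend on scaling between libraries. Psmb8 was at 8.51%, 7.11% and 7.66% of Psmb5 in untreated 13, 14 and 15, and at 9.59% and 11.4% in treated 17 and treated 33/35. The groups did not overlap, and the log2 ratio was 0.42 higher with the drug. Psmb10 was at 11.3%, 8.96% and 10.96% of Psmb7 untreated and at 11.6% and 11.5% treated, a log2 difference of 0.15. These groups were also apart, by a narrow margin. Of single genes tested, which are not ratios, 8.68% had groups without overlap. Psmb9 was at 7.87%, 3.55% and 4.98% of Psmb6 untreated and at 5.60% and 6.91% treated, a log2 difference of 0.25, with full overlap. The exact two-sided permutation p was 0.20 for Psmb8, 0.80 for Psmb9 and 0.20 for Psmb10, and 0.30, 0.80 and 0.30 after adjustment over the 3 pairs by the Benjamini-Hochberg method. With 2 libraries against 3 the smallest p this test can give is 0.20, so the design could not pass the threshold. Without untreated 14 the Psmb9 difference was -0.01, and that of Psmb10 was 0.05. All 3 ratios were lowest in untreated 14. On the log2 scale the Psmb8 to Psmb5 ratio was -3.50 and -3.64 in untreated 13 and 15. It was -3.33 and -3.09 in treated 17 and treated 33/35.

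**Figure D4:**
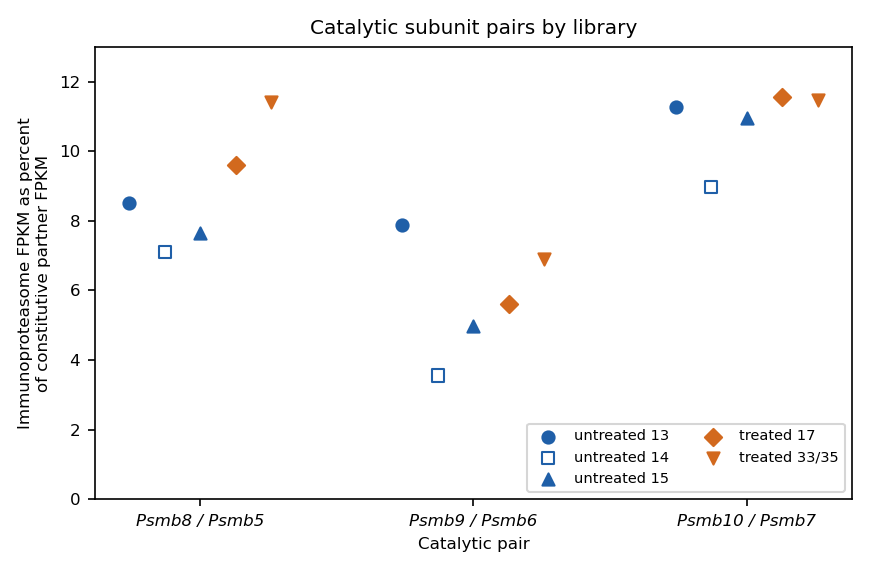
FPKM of each immunoproteasome gene as a percent of its constitutive partner, by library (untreated blue, treated orange, untreated 14 as open squares). Psmb8 against Psmb5 is highest in the treated libraries at 9.59% and 11.4%, whereas the groups overlap for Psmb9 against Psmb6.

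Markers of leukocytes, which express the immunoproteasome, varied between libraries too. The summed level of 13 such markers was 258, 236 and 166 FPKM untreated against 181 and 283 FPKM treated. Ptprc, the pan-leukocyte gene, was at 4.75, 3.37 and 2.57 FPKM untreated and 3.27 and 4.91 FPKM treated. Cd74, of antigen-presenting cells, was at 138, 104 and 79.0 FPKM untreated and 85.9 and 152 FPKM treated. Cd3e, Cd8a, Cd4 and Cd79a, of T and B cells, were all under 1 FPKM, and 6 of the 13 markers passed the filter. This sum is mostly Cd74 and Lyz2, and was highest in treated 33/35, as was Psmb8. The macrophage gene Cd68 was instead highest in untreated 14, where all 3 immunoproteasome genes were lowest. Csf1r and Adgre1, also of macrophages, were highest there by a small margin over treated 33/35. Csf1r was at 9.69, 11.64 and 5.94 FPKM untreated and 9.97 and 11.61 FPKM treated. Adgre1 was at 5.08, 5.60 and 3.50 FPKM untreated and 4.08 and 5.40 FPKM treated, and Cd68 at 8.72, 13.7 and 8.32 FPKM untreated and 9.26 and 10.5 FPKM treated. None of the 6 markers that passed the filter was lowest in untreated 14. The part of leukocyte content in the immunoproteasome values was not tested. Of 7 interferon and antigen presentation genes, 6 had estimates above 0 and 1 below, at a median of 0.22 on the log2 scale, and 0 passed. Tap1, the neighbour of Psmb9, measured 5.39, 3.87 and 6.60 FPKM untreated and 5.07 and 7.63 FPKM treated. Irf1, an interferon-induced factor, and Nlrc5, an activator of these genes, had the smallest p of that list, at -0.18 (SE 0.13) and 0.24 (SE 0.21) on the log2 fold scale. Irf1 was below every untreated value in both treated libraries, as were 3.18% of all genes tested.

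Nfe2l1 (chromosome 11, 96817414 to 96829968) differed little between the groups. It was measured at 246 ± 12.4 FPKM (SD, n = 3) in untreated and 232 ± 24.1 FPKM (SD, n = 2) in treated libraries, a log2 fold change of -0.09 (SE 0.17), with a 95% interval from -0.53 to 0.36. Treated 33/35 had the lowest value and treated 17 the second highest, so the treated libraries enclosed untreated 13 and 15. Untreated 14 was highest by 0.12 on the log2 scale over the mean of untreated 13 and 15, less than for most cap genes. The related factor Nfe2l2 was lower in level, at 38.3, 40.7 and 36.4 FPKM untreated and 41.9 and 33.6 FPKM treated. Nfe2l3 fell below the filter, with 1.96 FPKM in treated 33/35 against 0.291 to 0.665 FPKM in the other libraries.

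Genes that process Nfe2l1 were all expressed, and 0 of 9 passed the test (5 estimates above 0, 4 below), with a median log2 fold change of 0.00. Ddi2, the protease that cleaves it, measured 13.2, 13.4 and 12.3 FPKM without the drug against 11.6 and 11.1 FPKM with it. Both treated values lay under all untreated ones, as in 3.18% of all genes tested, with a log2 fold change of -0.18 (SE 0.13). Ufd1, a cofactor of the extracting ATPase Vcp, had 0.17 (SE 0.25). Vcp was at 117, 153 and 115 FPKM untreated and 122 and 126 FPKM treated. Ngly1, which strips sugars from Nfe2l1, was at 25.2, 18.4 and 25.6 FPKM untreated and 20.3 and 23.3 FPKM treated. Of the 5 tested relatives and partners of Nfe2l1, Mafk had an estimate of 0.11 (SE 0.32) and Bach1, which competes for the same elements, one of -0.03 (SE 0.15), both log2 fold changes. None of these 5 passed.

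None of the assembly factors and activators of the proteasome passed the test. Of 8 tested assembly chaperones, 3 had log2 fold changes above 0 and 5 below. Pomp, which matures the core, measured 95.1, 124 and 88.0 FPKM without the drug against 92.9 and 89.6 FPKM with it, highest in untreated 14. Psmd10, a chaperone of the cap, had -0.16 (SE 0.14) on the log2 fold scale, and its treated values lay below all untreated ones. Of 14 activators and bound factors, 10 had log2 fold changes above 0 and 4 below. Sem1, a small lid subunit, had -0.19 (SE 0.14), with treated values below all untreated ones. Psmf1, an inhibitor of the core, had 0.15 (SE 0.13), with treated values above them. Of all genes tested, 3.18% were lower and 5.50% higher without overlap. Psme1 and Psme2, which form an interferon-inducible cap, were lowest in untreated 14. Psme2 measured 128, 62.8 and 106 FPKM without the drug against 86.9 and 110.0 FPKM with it. The germ cell and thymus subunits Psma8 and Psmb11 were at most 0.139 FPKM in any library.

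The ubiquitin genes that feed the proteasome did not pass the test either. Ubb, a polyubiquitin gene, measured 297, 379 and 265 FPKM without the drug against 255 and 282 FPKM with it, a log2 fold change of -0.21 (SE 0.22). Its highest value was in untreated 14. Of 6 ubiquitin and E1 genes 3 had log2 fold changes above 0 and 3 below. Of 7 shuttle factors and autophagy receptors 1 was above 0 and 6 below, and 0 passed in either list. Rad23b, a shuttle factor, and Nbr1, an autophagy receptor, had -0.09 (SE 0.29) and -0.10 (SE 0.16). Sqstm1, an autophagy receptor, measured 118, 231 and 109.9 FPKM without the drug against 129.7 and 144 FPKM with it, highest in untreated 14.

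Of 5 muscle ubiquitin ligases, 4 followed the order of the muscle markers. Trim63, a ligase of atrophying muscle, measured 0.142, 100.1 and 0.0367 FPKM untreated against 22.5 and 12.0 FPKM treated. Fbxo32, its usual companion, measured 2.57, 66.0 and 2.41 FPKM untreated and 11.7 and 10.6 FPKM treated. Trim54 and Trim63 had the smallest p of the list, with log2 fold changes of 3.13 (SE 2.76) and 2.38 (SE 2.56), and 0 of 5 passed. Fbxo30 alone did not follow this order, at 7.51, 7.76 and 7.27 FPKM untreated and 6.57 and 8.39 FPKM treated. Zfand5, which stimulates the proteasome in muscle, was at 40.6, 106 and 41.5 FPKM untreated and 58.6 and 57.4 FPKM treated, also highest in untreated 14.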

How the data were processed

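Total RNA libraries from Trizol extracts of whole brown adipose tissue were sequenced on an Illumina system, per the labels' protocols. The authors deposited 1 table of FPKM (fragments scaled to transcript length and library depth) per sample, per the file headers. The submitters' processing notes name CASAVA 1.7 and GRCm38. Aligner, quantifier and annotation release are not given in the sources used here. Symbols and coordinates came from GENCODE M21 (GRCm38), which held 44395 of 45320 identifiers. Paaf1 and Irf8 had no match.

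Read totals were unknown. Steps between low values gave depths of 0.811 to 1.01 relative to untreated 13. Genes averaging 1 FPKM or more were tested on log2(FPKM + 0.5) with limma 3.58.1 (R 4.3.3), with a variance trend and 3 residual degrees of freedom, two-sided, with Benjamini-Hochberg adjustment over all 13527 genes and a threshold of 0.05. Catalytic pairs were compared by an exact permutation test in Python 3.11.15 with scipy 1.17.1. On simulated data (13259 genes, treated minus untreated) limma called 56.2% of the genes given a log2 change of 2, 93.6% of those given 4, and 7 unchanged genes. The members and lists were chosen with earlier results of these data known. All members were named, with the extremes of each subcomplex, and from each other list the 2 genes of smallest p, of which 1 is not reported here. Other genes were named after their values were seen. Promoter sequences are from RefSeq (GRCm38.p6).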

Additional observations from a re-analysis of the deposited data

How the results depend on the processing

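No paired analysis was possible because the groups share no replicate number. None of the 35 members passed the test under any setting tried (adjusted p from 0.382 to 1.00 in limma). Over all genes, 6 passed, against 2 with a pseudocount of 0.1, 0 without a filter, 1 with a filter of 5 FPKM, and 0 to 158 with 1 library left out, the 158 without untreated 14. The number of members whose groups did not overlap was 2, and 4 to 16 with 1 library left out, a count chosen after seeing the data. As a share it was 20%, 45.7%, 11.4%, 14.3% and 14.3% of the members without untreated 13, 14 and 15, treated 17 and treated 33/35, against 17.3%, 46.1%, 18.2%, 31.96% and 19.6% of all genes tested. The median of all genes tested, 0.06, was -0.05 with median centring, a shift of over 0.1, and -0.04 with quantile normalization. The median of the constitutive subunits, -0.03, was -0.15 with median centring and -0.096 to 0.071 with 1 library left out, positive without untreated 14 or treated 17. Median centring turned these log2 fold changes negative: Psma1 -0.074, Psma2 -0.11, Psma6 -0.11, Psmb2 -0.0028, Psmb10 -0.0030, Psmc6 -0.087, Psmd3 -0.091, Psmd4 -0.11, Psmd8 -0.0039, Psmd13 -0.049. Quantile normalization gave Psmd3 -0.0077. Leaving out 1 library turned the sign of the members that follow, most often without untreated 14, and none was called. The ranges in the core were Psma1 -0.094 to 0.17, Psma2 -0.025 to 0.053, Psma4 -0.12 to 0.0054, Psma5 -0.17 to 0.13, Psma6 -0.035 to 0.049 and Psma7 -0.19 to 0.089, then Psmb1 -0.098 to 0.078, Psmb3 -0.13 to 0.054, Psmb4 -0.14 to 0.071, Psmb5 -0.067 to 0.030, Psmb6 -0.12 to 0.050 and Psmb7 -0.097 to 0.0053. In the cap they were Psmc1 -0.11 to 0.11, Psmc2 -0.17 to 0.14, Psmc3 -0.26 to 0.15, Psmc5 -0.21 to 0.15 and Psmc6 -0.018 to 0.10, then Psmd1 -0.13 to 0.13, Psmd2 -0.19 to 0.14, Psmd3 -0.034 to 0.12, Psmd4 -0.060 to 0.092, Psmd6 -0.24 to 0.18, Psmd7 -0.21 to 0.26, Psmd8 -0.14 to 0.24, Psmd11 -0.099 to 0.068, Psmd12 -0.13 to 0.11 and Psmd13 -0.067 to 0.19. Nfe2l1 ran from -0.19 to 0.021. The Psmb9 to Psmb6 log2 ratio difference ran from -0.014 to 0.53. With 1 treated library left, that library is assumed to vary like the others. FPKM carry no read counts, so no counting error can be given.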
